A study of Mus musculus with 8 samples.

Results

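Ccn1, Ccn2, Ccn3, Ccn4, Ccn5, Ankrd1, Amotl2, Yap1, Wwtr1 and Tead1 are genes of the CCN family and of the YAP/TEAD branch of Hippo signaling, and they were examined in lymphatic endothelial cells exposed to TGFβ1. They were picked by symbol, and the 10 genes correspond to 10 of the 55471 rows of the count table, with 1 row for each symbol. RNA was sequenced from SV-LECs, an SV40-immortalized line of mouse lymphatic endothelial cells derived from mesenteric adventitial tissue. 4 samples were left untreated and 4 were treated with 10 ng/ml TGFβ1 for 72 h, and the cells of both groups carried the SV40 immortalization and grew in high-glucose DMEM with serum. The samples are described as technical replicates, so every p-value below measures the spread between libraries of a single cell line and not between independent lines or animals.

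YAP (encoded by Yap1) and TAZ (encoded by Wwtr1) are transcriptional coactivators that do not bind DNA themselves. When the Hippo kinases are inactive they enter the nucleus and bind TEAD factors, which recognize a short DNA core and switch on genes such as Ccn1, Ccn2, Ankrd1 and Amotl2. Ccn2, formerly connective tissue growth factor, is also a classical gene of the SMAD response to TGFβ. CCN proteins are secreted and reside in the extracellular matrix, where they bind integrins, heparan sulfate proteoglycans and LDL receptor-related proteins.

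The 6-base TEAD core was searched in the 250 bases before the start sites in the RefSeq promoter table for GRCm38.p6, in which 5 of the 10 genes were matched (Ccn1, Ankrd1, Amotl2, Yap1 and Wwtr1). Each of the 5 held CATTCC on the coding strand or its reverse complement GGAATG. Of all 32817 windows of that length, 12.6% did. Ccn1, Ankrd1 and Amotl2 are already known as genes switched on through TEAD, so the comparison is not a test of enrichment. The stretches below are shown because they place the core, and any SMAD pentamer beside it, near a RefSeq start site of genes whose RNA is reported here. They are written 5′ to 3′ along the strand of the gene, each with 30 bases, and capitals mark the TEAD core and the pentamer GTCTG or its reverse complement CAGAC.
Ccn1: gcagcccgcgccaaccaaCATTCCtgagat
Ankrd1, far match: ggtgtggtcactgccaaaGGAATGaccctc
Ankrd1, near match: ttccCAGACactaaGTCTGGAATGaaaatt
Amotl2: gggaacctgaaactctcaCATTCCtggcat
Yap1: tgcggccgggaGTCTGcaGGAATGtagcga
Wwtr1: gtcagtggtaaactcaaaGGAATGcagata

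The Ccn1 stretch is chr3:145650077-145650106 on the minus strand, and its core begins at position -103 relative to the start site. Ankrd1 had a pair of matches, at chr19:36120043-36120072 and chr19:36119956-36119985 on the minus strand, with the cores at -210 and -123. The near match shares its first G with a GTCTG pentamer, and a CAGAC begins 10 bases further upstream. The Amotl2 stretch is chr9:102717721-102717750 on the plus strand, with the core at -65. The Yap1 stretch is chr9:8004726-8004755 on the minus strand, with the core at -141 and a GTCTG beginning 7 bases before it. The Wwtr1 stretch is chr3:57576035-57576064 on the minus strand, with the core at -136 from one annotated start and at -170 from another. The pentamer is short and occurred in 42.2% of all windows on either strand, and the AP-1 motif TGACTCA (reverse complement TGAGTCA), present in 4.46% of windows, had no match in the 5 genes. The windows lie upstream of a RefSeq start but not always of the whole gene. In GENCODE M21 all 250 bases of the Ankrd1 window and 136 bases of the Amotl2 window belong to exons of the same gene, since other transcripts start further upstream, and 17 bases of the Yap1 window are exonic in Gm45494. These are matches of letters in a window and say nothing about whether a factor was bound.

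**Figure D1:**
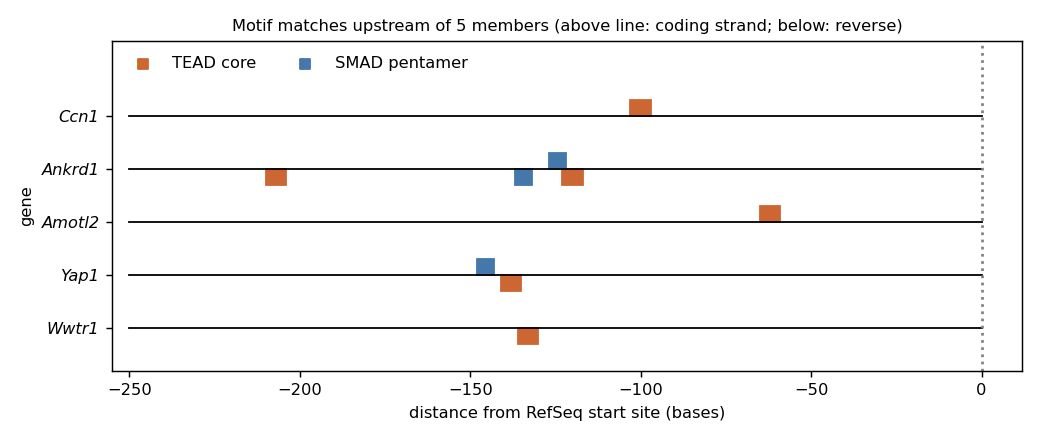
Positions of the TEAD core (orange) and the SMAD pentamer (blue) in the 250 bases before a RefSeq start site of 5 genes, with the distance from the RefSeq start site in bases on the x axis and 1 line per gene. Boxes above a line are matches on the coding strand and boxes below it are matches on the reverse strand. Every gene has a TEAD core between positions -210 and -65, and for Wwtr1 distances are from the nearer start.

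Sequencing depth ranged from 19182616 to 26077972 counts without TGFβ1 and from 18952504 to 26386941 counts with it. Levels are given as CPM, counts scaled by library size and by TMM, edgeR's correction for differences in RNA composition. A gene with 3 counts stood at 0.113 to 0.162 CPM, a floor that covers counting error only. In the edgeR likelihood ratio test 75.6% of the 13818 genes tested passed a false discovery rate (FDR) of 0.05, 37.6% as higher and 38.0% as lower after TGFβ1, and 17.5% passed it with an absolute log2 fold change of at least 1. The groups did not overlap in 69.8% of genes. Against these rates, 9 of the 10 genes passed the test, 7 as higher and 2 as lower, 9 had groups that did not overlap, and 3 changed by at least 1 on the log2 scale. The median log2 fold change of the 10 genes was 0.48 and that of all genes tested was -0.0064. The share called in either direction, 90%, was thus not far from the background of these data, and 70% were called higher. The 10 genes were chosen with earlier results of these data known, so these shares are no evidence of enrichment. The changes spanned log2 fold changes from -0.38 to 5.31.

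Of the matricellular genes, Ccn5, Ccn2, Ccn4 and Ccn1 rose after TGFβ1, in that order of fold change, and Ccn3 did not pass the test. Ccn6, the remaining gene of the family, had 0 counts in all 8 libraries and was not tested. This bounds it at the level of 3 counts given above, except in the 482 exon bases (34%) that overlap Tube1 on the opposite strand. The strand setting used in counting is not given, so reads of that overlap may not have been counted.

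Ccn5 encodes the CCN protein that lacks the C-terminal cystine-knot domain of its relatives. Its gene lies at chr2:163820861-163833146 on the plus strand (GRCm38). It was measured at 0.867, 1.62, 1.35 and 0.811 CPM in untreated libraries 1 to 4 and at 48.8, 44.1, 46.1 and 51.5 CPM in the treated libraries. The untreated values rest on 16 to 43 counts and the treated ones on 903 to 1326 counts, with coefficients of variation of 33.4% and 6.74%. The lowest treated library was 27.3 times the highest untreated one. The means were 1.16 ± 0.388 and 47.6 ± 3.21 CPM (SD, n = 4), and the log2 fold change was 5.31 (SE 0.154, 95% interval 5.01 to 5.61), a 39.7-fold difference. The likelihood ratio statistic was 2215, with an FDR below the smallest number that the computer holds, and Ccn5 ranked 44 among all genes tested by log2 fold change.

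Ccn2 lies at chr10:24595442-24598683 on the plus strand and encodes a secreted protein known for its part in fibrosis and matrix production. Its level was 240, 213, 218 and 206 CPM in the untreated libraries and 842, 919, 944 and 957 CPM after TGFβ1. The lowest treated value was 3.50 times the highest untreated value. The means were 219 ± 14.8 and 916 ± 51.4 CPM (SD, n = 4), a 4.17-fold difference with a log2 fold change of 2.06 (SE 0.055, FDR 4.69e-281 in edgeR's likelihood ratio test), and Ccn2 ranked 472 by log2 fold change. An antisense transcript, Gm15270, overlaps 665 exon bases of Ccn2 (23.2%), and 14.6% of the 75-base stretches of Ccn2 transcripts match it on the opposite strand. Gm15270 had 3 to 12 counts in untreated and 35 to 70 counts in treated libraries, against 4064 to 5678 and 15572 to 24668 for Ccn2. The kit marked strand, but the strand setting used in counting is not given in the sources used here, so reads of the overlap cannot be assigned with certainty.

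Ccn4, formerly Wisp1 and known as a target of WNT signaling, lies at chr15:66891320-66923201 on the plus strand. It was the most even of the genes among the untreated libraries, at 366, 372, 371 and 367 CPM, and it stood at 708, 695, 715 and 745 CPM after TGFβ1. The 1.94-fold difference between the means, 369 ± 2.92 and 716 ± 21.3 CPM (SD, n = 4), gave a log2 fold change of 0.96 (SE 0.038, FDR 2.66e-137, edgeR). The groups were far apart compared with their spread, with a ratio of 1.87 between the lowest treated and the highest untreated library.

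Ccn1, formerly Cyr61, an angiogenic CCN gene and a standard readout of YAP activity, lies at chr3:145646976-145649981 on the minus strand. Its level was 413, 366, 364 and 355 CPM in untreated cells and 631, 688, 679 and 698 CPM after TGFβ1. Untreated library 1 was the highest of its group and treated library 1 the lowest of its own, and the groups did not overlap. The means were 374 ± 26.4 and 674 ± 29.8 CPM (SD, n = 4), a 1.80-fold difference (log2 fold change 0.85, SE 0.053, FDR 4.51e-55, edgeR).

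Ccn3, formerly Nov, a CCN gene known for effects opposite to those of Ccn2 on matrix genes in other cells, lies at chr15:54745702-54754039 on the plus strand. It was measured at 18.0, 13.8, 13.0 and 11.7 CPM in untreated and 12.4, 11.3, 13.4 and 13.2 CPM in treated libraries. The groups overlapped, and untreated library 1 lay above every other library. The log2 fold change was -0.17 (SE 0.121, FDR 0.205, edgeR), and its 95% interval ran from -0.40 to 0.07, below the intervals of the other CCN genes.

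**Figure D2:**
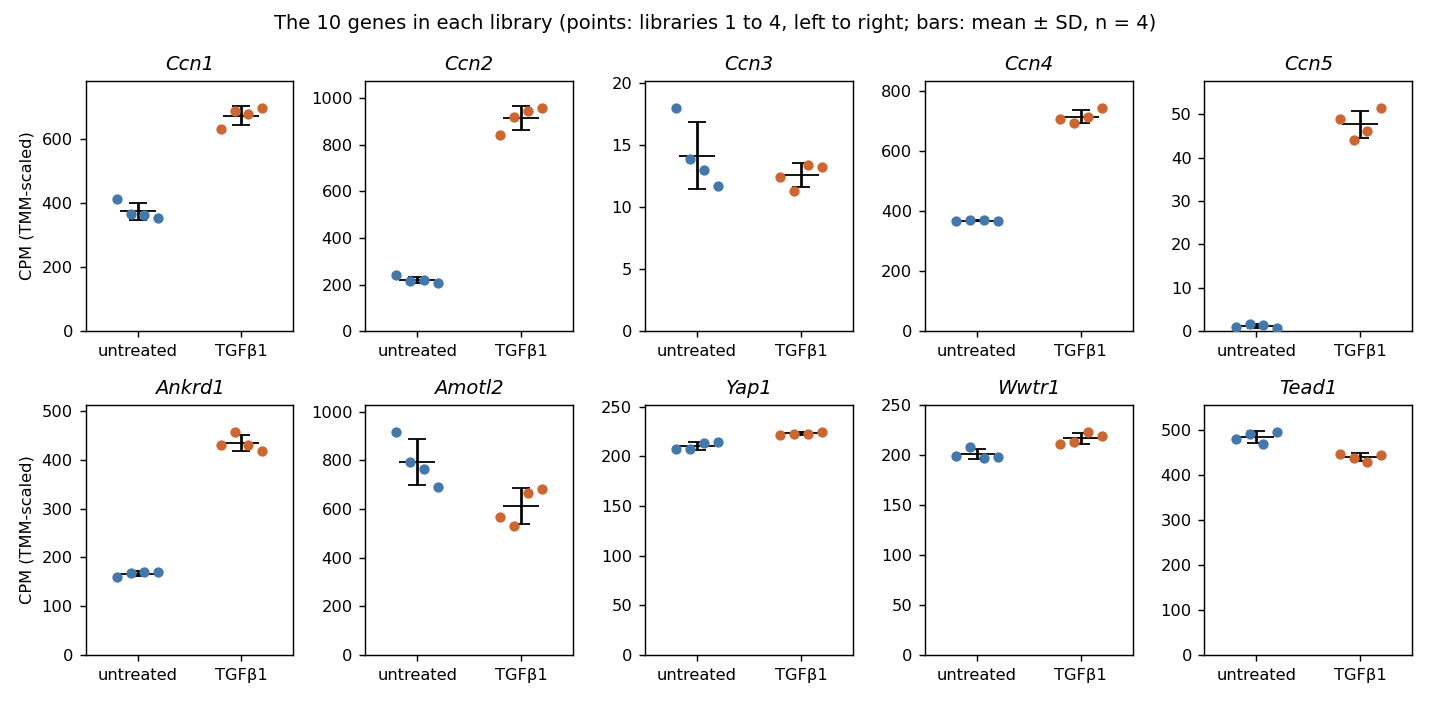
Level of each of the 10 genes in the untreated (blue) and TGFβ1-treated (orange) libraries, in TMM-scaled CPM on linear axes that start at 0 and differ between panels. Points are libraries 1 to 4 from left to right and black bars are the mean ± SD of 4 libraries. The groups are separate in every panel except that of Ccn3, and in that of Amotl2 untreated library 4 (692 CPM) lies just above treated library 4 (680 CPM).

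Levels of different genes were compared per kilobase of exon, using GENCODE M21 lengths. For Ccn2 the full exon length was used, including the bases that overlap Gm15270, whose reads cannot be assigned with certainty. In untreated SV-LECs Ccn1 (185 ± 13.1 CPM per kb) was followed by Amotl2 (126 ± 15.0), Ccn2 (76.7 ± 5.16), Ccn4 (66.3 ± 0.524), Ankrd1 (57.8 ± 1.84), Wwtr1 (41.9 ± 1.05), Tead1 (35.7 ± 0.945), Yap1 (22.8 ± 0.416), Ccn3 (4.92 ± 0.945) and Ccn5 (0.604 ± 0.202), with no overlap between neighbors. After TGFβ1 the order was Ccn1 (334 ± 14.8 CPM per kb), Ccn2 (320 ± 18.0), Ankrd1 (150 ± 5.91), Ccn4 (129 ± 3.82), Amotl2 (97.1 ± 11.8), Wwtr1 (45.3 ± 1.21), Tead1 (32.5 ± 0.584), Ccn5 (24.8 ± 1.67), Yap1 (24.1 ± 0.142) and Ccn3 (4.38 ± 0.330). In this group the libraries of Ccn1 and Ccn2 overlapped, as did those of Ccn5 and Yap1. Ccn5 thus moved from the lowest per-length level to that of Yap1, and Amotl2 moved from the second place to the fifth. Places depended on the length used. With the longest transcript as length, Ccn2 (368 CPM per kb) stood above Ccn1 (334) in treated cells, again with overlap, Ccn5 (27.7) fell below Yap1 (42.2), and Amotl2 (179) overlapped Ccn1 (185) in untreated cells.

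The make-up of CCN mRNA was followed as the share of each gene in the summed per-length level of Ccn1 to Ccn5. Ccn2 made up 23.2%, 22.7%, 23.2% and 22.6% in untreated libraries and 38.5%, 39.5%, 40.1% and 39.6% after TGFβ1. Its mean share was 23.0 ± 0.332% in untreated and 39.4 ± 0.640% in treated libraries (SD, n = 4), a difference of 16.5 percentage points. The Ccn2 share carries the same limit as its level, from the overlap with Gm15270. Ccn5 made up 0.182 ± 0.0637% and 3.05 ± 0.232%. The share of Ccn1 was 55.5% in untreated and 41.1% in treated libraries, that of Ccn4 was 19.9% and 15.9%, and that of Ccn3 was 1.47% and 0.541%, so the lower shares of Ccn1 and Ccn4 stood beside levels that rose. The summed level was 334 ± 18.8 CPM per kb without and 812 ± 34.5 CPM per kb with TGFβ1, a ratio of 2.43. The log2 ratio of Ccn2 to Ccn1 within a library, which does not depend on library scaling, was -1.27 ± 0.022 and -0.06 ± 0.029, a difference of 1.21. For these 4 values the exact two-sided permutation test gave p = 0.0286, the smallest that 4 against 4 libraries can give, and 0.0357 after Benjamini-Hochberg adjustment over the 5 such values computed. They rest on the same counts as the changes of the single genes and add no independent evidence to them.

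**Figure D3:**
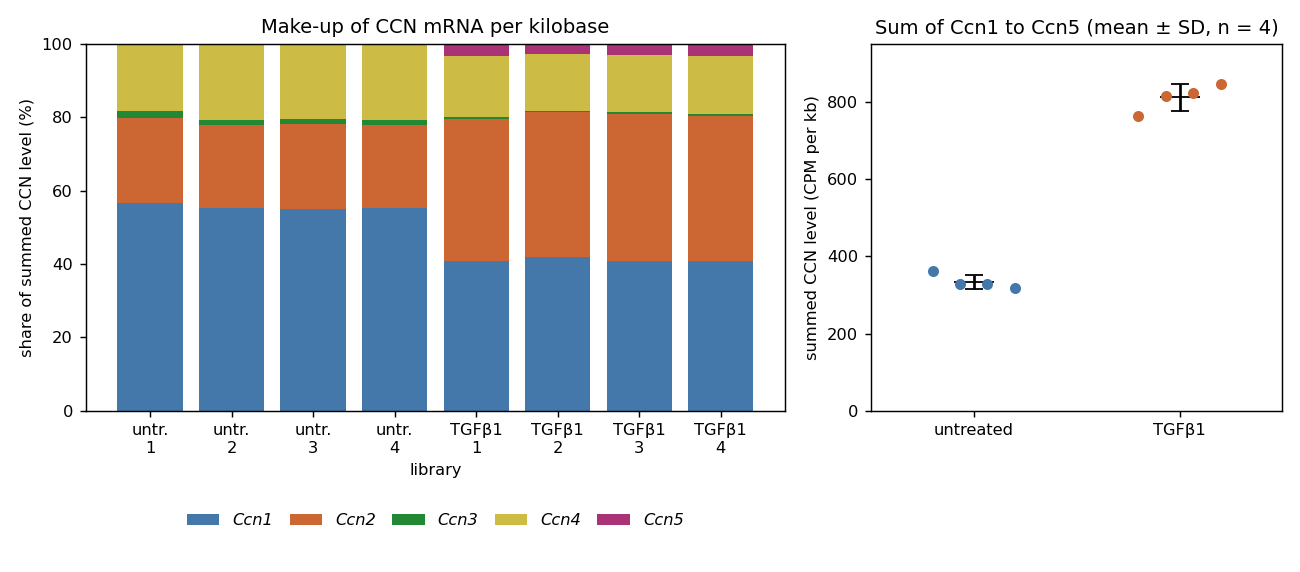
Left, the share (%) of each CCN gene in the summed per-length level of Ccn1 to Ccn5, with 1 stacked bar per library. Right, the summed level in CPM per kb, with 1 point per library and the mean ± SD of 4 libraries in black. The Ccn2 share lies between 22.6% and 23.2% in untreated and between 38.5% and 40.1% in treated libraries, and the sum is 2.43 times higher after TGFβ1.

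The YAP/TAZ target genes outside the CCN family moved in opposite directions. Ankrd1, which encodes a nuclear and sarcomeric ankyrin repeat protein, lies at chr19:36111961-36120099 on the minus strand, and the pair of TEAD cores shown above lies upstream of its RefSeq start but within the GENCODE span of the gene. It stood at 159, 168, 170 and 171 CPM without and 431, 458, 431 and 417 CPM with TGFβ1. The means of 167 ± 5.32 and 434 ± 17.0 CPM (SD, n = 4) differed 2.60-fold, with a log2 fold change of 1.38 (SE 0.044, FDR 4.15e-213, edgeR), and the lowest treated library was 2.45 times the highest untreated one.

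Amotl2 encodes an angiomotin, a junctional scaffold protein that can hold YAP in the cytoplasm and is itself a YAP target. The gene lies at chr9:102716672-102733418 on the plus strand. It was measured at 918, 794, 765 and 692 CPM in untreated and 566, 529, 667 and 680 CPM in treated libraries. The groups were separate only by a ratio of 1.02, and both spread widely (792 ± 94.4 and 611 ± 74.3 CPM, SD, n = 4). Amotl2 fell by 0.38 on the log2 scale (SE 0.090, FDR 5.32e-05, edgeR). With each library left out in turn the log2 fold change lay between -0.44 and -0.30 and kept its call, and the weakest value was that without untreated library 1.

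**Figure D4:**
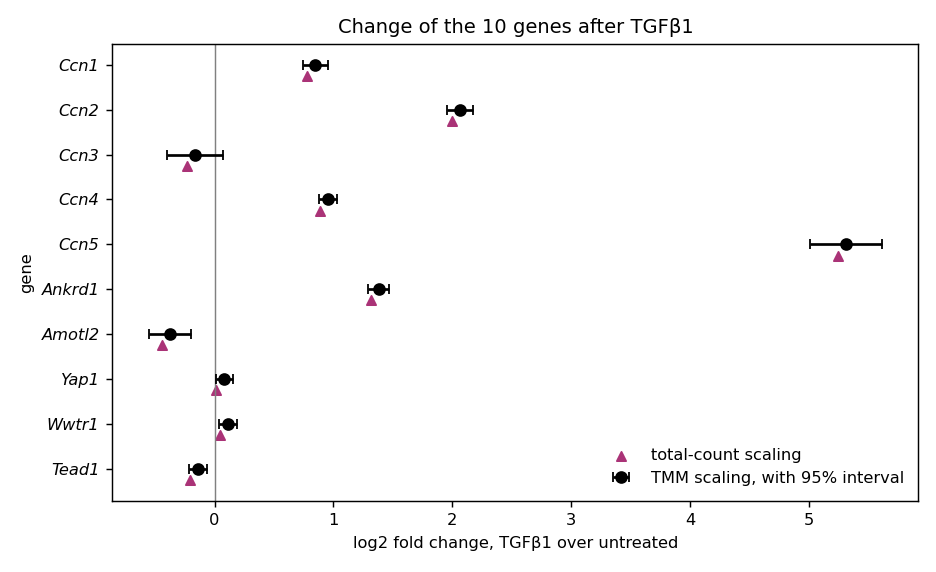
Log2 fold change, TGFβ1 over untreated, of each of the 10 genes, with 95% intervals from the edgeR fit (black circles), and the same value after scaling to total counts alone (purple triangles). Ccn5 stands at 5.31 and Ccn2 at 2.06, whereas Yap1, Wwtr1 and Tead1 lie within 0.14 of 0, and total-count scaling shifts each gene slightly to the left.

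Yap1, Wwtr1 and Tead1, which encode parts of the transcription complex itself, changed by less than 0.15 on the log2 scale. Tead2 (-0.68) and Tead3 (0.25), described below, changed by more. Yap1 lies at chr9:7931999-8004596 on the minus strand and stood at 208, 207, 213 and 215 CPM without and 222, 223, 223 and 225 CPM with TGFβ1. The means were 211 ± 3.85 and 223 ± 1.32 CPM (SD, n = 4), with a log2 fold change of 0.083 (SE 0.036, FDR 0.031, edgeR). The libraries did not overlap, but a difference of this size depended on the scaling. With total counts alone the log2 fold change of Yap1 was 0.015 with an FDR of 0.709, and the call was kept in 6 of 17 alternative analyses. Scaling to total counts shifted the median of all genes from -0.0064 to -0.074, a shift nearly as large as the Yap1 value.

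Wwtr1 lies at chr3:57455649-57575910 on the minus strand and had 199, 208, 197 and 198 CPM in untreated and 210, 213, 223 and 219 CPM in treated libraries. The log2 fold change was 0.11 (SE 0.040, FDR 0.00755, edgeR), with means of 200 ± 5.02 and 217 ± 5.79 CPM (SD, n = 4). The call was lost with total counts alone (0.044) and without a filter on low counts (0.081). The log2 ratio of Wwtr1 to Yap1 per length, which is free of scaling, was 0.88 ± 0.057 in untreated and 0.91 ± 0.036 in treated libraries (SD, n = 4), and the difference of 0.029 was within the spread (exact two-sided permutation p = 0.486). Wwtr1 was above Yap1 per exon length in every library, but the size of this ratio depended on the length used. With the longest transcript as length, Wwtr1 and Yap1 had means of 42.7 and 39.9 CPM per kb in untreated libraries. In treated libraries these means were 46.1 and 42.2 CPM per kb.

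Tead1, which encodes a DNA-binding partner of YAP and TAZ, lies at chr7:112679318-112906807 on the plus strand. Its level was 481, 493, 469 and 498 CPM in untreated and 448, 439, 430 and 445 CPM in treated libraries. It fell by 0.14 on the log2 scale (SE 0.038, FDR 0.000453, edgeR), from 485 ± 12.8 to 441 ± 7.93 CPM (SD, n = 4), and kept this direction and its call in all 17 alternatives.

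Of the TEAD and VGLL genes listed beside it, 5 of 6 were tested, and 1 was higher, 2 were lower and 2 did not pass the test (60% called, beside 75.6% of all genes), with a median log2 fold change of -0.21. Tead2 fell by 0.68 on the log2 scale (SE 0.060, from 83.8 ± 5.95 to 52.3 ± 2.32 CPM, SD, n = 4). Tead3 had a log2 fold change of 0.25 (SE 0.069) and was called higher with overlapping groups. Vgll3, which encodes a cofactor that competes with YAP and TAZ for TEAD, fell by 0.35 (SE 0.039) from 644 ± 12.6 to 504 ± 15.5 CPM. Vgll2 had too few counts to be tested.

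The 22 Hippo pathway genes were all tested, and 8 were higher, 7 lower and 7 not called, with a median log2 fold change of -7.6e-05. The share called was 68.2%, beside 75.6% of all genes tested, and with total counts alone it was 77.3% beside 76.2%. The most changed were Ptpn14, a phosphatase that binds YAP, with a log2 fold change of 1.28 (SE 0.049, 276 ± 19.0 to 673 ± 14.4 CPM, SD, n = 4), and Wwc1, the scaffold KIBRA, which fell by 1.10 (SE 0.073, 50.7 ± 2.98 to 23.6 ± 2.39 CPM). The abundant kinase gene Map4k4 rose by 0.30 (SE 0.039). Wwc2 had a log2 fold change of 0.088 (FDR 0.040), a call that was lost in 11 of 17 alternatives, and Mob1a, a cofactor of the LATS kinases, had -0.069 (FDR 0.087). The following genes were chosen after their values were seen, because they are the core kinase cassette or paralogs of Amotl2. The kinase gene Stk3 fell by 0.51, its scaffold gene Sav1 by 0.28 and Lats2 by 0.56 on the log2 scale, whereas Stk4 (-0.002, FDR 0.975) and Lats1 (-0.036, FDR 0.465) did not pass the test and Mob1b rose by 0.65. Amotl1 rose by 0.60 (SE 0.040) where Amotl2 fell, and Amot had -0.15 (SE 0.064, FDR 0.027), with overlapping groups and a call that DESeq2 did not give (FDR 0.066).

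**Figure D5:**
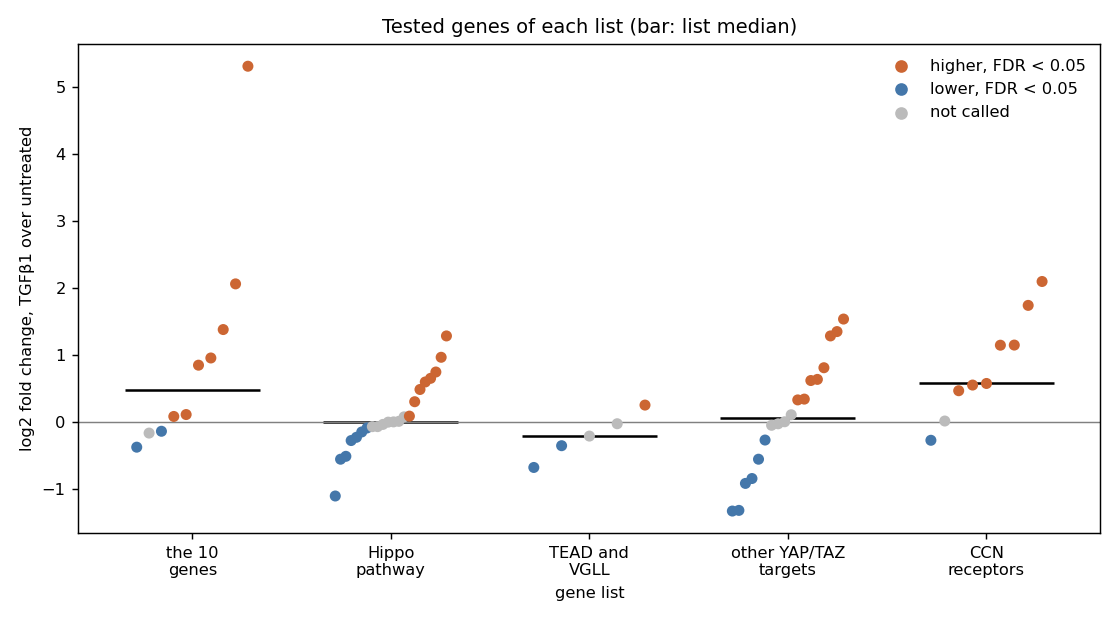
Log2 fold change, TGFβ1 over untreated, of every tested gene of the 10 genes described here and of 4 gene lists. Each point is a gene, ordered within its list and colored as higher (orange), lower (blue) or not called (gray) at an FDR of 0.05, and black bars are list medians. The medians are 0.48 for the 10 genes, -7.6e-05 for the Hippo list, -0.21 for TEAD and VGLL genes, 0.06 for other YAP/TAZ targets and 0.58 for CCN receptors.

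Other genes known as targets of YAP and TAZ did not move one way. Of 18 tested, 8 were higher, 6 lower and 4 not called (77.8% called, beside 75.6% of all genes), and their median log2 fold change was 0.06. Nuak2, a kinase gene, rose by 1.54 (SE 0.064) from 15.3 ± 1.22 to 44.2 ± 1.31 CPM (SD, n = 4), Fjx1 rose by 1.35 (SE 0.246) at a low level of 0.620 ± 0.253 to 1.61 ± 0.235 CPM, and Ptpn14, which is on both lists, rose by 1.28. Gadd45a, a growth arrest gene, fell by 1.33 (SE 0.088) from 107 ± 15.0 to 42.5 ± 2.81 CPM, and Igfbp3 fell by 1.32 (SE 0.106) from 20.0 ± 1.56 to 7.99 ± 1.22 CPM. Among the most abundant of the list, the receptor kinase gene Axl rose by 0.33 and Myof by 0.62, whereas Ccdc80 fell by 0.92. The rise of Ankrd1 and Ccn1 thus had counterparts in some target genes, while others fell by a similar amount. No gene of this list changed as much as Ccn2 (2.06), as the list ran from -1.33 to 1.54.

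Of the genes for CCN receptors, 9 of 10 were tested, and 7 were higher, 1 was lower and 1 was not called. Thus 88.9% were called and 77.8% were higher, beside 75.6% and 37.6% of all genes, and the median log2 fold change was 0.58. The list was chosen with earlier results of these data known, so these shares are no evidence of enrichment. The integrin gene Itgb3 rose from 4.66 ± 0.376 to 20.0 ± 1.53 CPM (SD, n = 4), a log2 fold change of 2.10 (SE 0.101). Lrp1, the LDL receptor-related protein that takes up CCN2, rose from 485 ± 24.7 to 1620 ± 133 CPM (log2 fold change 1.74, SE 0.059). Itgb5 and Itga6 each rose by 1.15 (SE 0.038 and 0.069), and the abundant integrin genes Itgb1 and Itgav rose by 0.47 and 0.58. The proteoglycan gene Sdc4 was the one that fell, by 0.27 (SE 0.040), and Lrp6, named after its value was seen as the one not called, had 0.015 (FDR 0.755). Itgam, a leukocyte integrin gene, was not tested.

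Genes with the most similar profile were sought over the 8 libraries among 9664 genes with a mean of at least 10 CPM, by the root mean square difference of centered log2 CPM. For Ccn5 these were Acsbg1 (0.342), Myh15 (0.427) and Tnfrsf18 (0.429), with log2 fold changes of 6.05, 5.03 and 4.76. For Amotl2 they were Tcf3 (0.031), Hspbp1 (0.033) and Timm13 (0.034), with log2 fold changes of -0.41, -0.40 and -0.35. The range of Amotl2 was far smaller than that of Ccn5, so the distances cannot be compared between them. Profiles were centered over all 8 libraries, so the difference between the groups is part of each distance, and shared regulation was not tested.

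Markers of cell types were read in the same libraries. Of 9 endothelial markers, Pecam1, Cdh5, Tie1, Emcn, Vwf and Erg had at most 10 counts in any library, with Tie1 and Erg at 0 in all, and the sum of the list was 28.2 to 31.1 CPM in untreated and 61.4 to 68.6 CPM in treated libraries, carried by Kdr and Flt1. Of 8 lymphatic markers, Prox1, Lyve1, Ccl21a and Reln had at most 3 counts, Ccl21a being at 0 throughout, and the sum, mostly Pdpn, was 413 to 448 and 426 to 440 CPM. Other markers of these lists were present, with means in untreated and treated libraries of 11.6 and 22.1 CPM for Kdr, 17.6 and 41.7 CPM for Flt1, 342 and 313 CPM for Pdpn, 21.6 and 29.3 CPM for Flt4 and 66.4 and 88.3 CPM for Nrp2. All of these were called higher except Pdpn, which was called lower. The remaining endothelial marker, Tek, had a log2 fold change of -0.16 and was not called (FDR 0.608, edgeR). The remaining lymphatic marker, Mmrn1, went the other way but was not tested, with 9 to 15 counts in untreated and 0 to 2 counts in treated libraries. Of 10 fibroblast and mural markers, 8 were tested, and 5 rose and 2 fell, where 37.6% of all genes tested were higher and 38.0% lower. The sum of the list was 8866 to 11203 CPM in untreated and 12661 to 14058 CPM in treated libraries. Leukocyte markers (2 of 6 tested, 2 higher) summed to 5.97 to 8.25 and 16.2 to 18.6 CPM. Of these, Ptprc, Adgre1, Cd3e and Itgam had no more than 3 counts. Epithelial markers (2 of 6 tested, 2 higher) summed to 0.304 to 1.18 and 2.71 to 4.23 CPM. Of these, Epcam, Krt5 and Cldn4 had no more than 7 counts. The fibroblast and mural sum was carried by Col1a1 (3459 and 6057 CPM) and Col1a2 (5497 and 5195 CPM, not called), and its members did not move together, as Acta2 and Tagln rose by 1.89 and 0.99 on the log2 scale while Dcn fell by 1.91 and Pdgfra by 1.47. The sum was higher in the treated libraries, as were Ccn1, Ccn2, Ccn4, Ccn5 and Ankrd1, and its part in these results was not tested. In bulk RNA a change in the number of cells expressing a gene and a change in RNA per cell cannot be told apart.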

How the data were processed

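RNA of 8 SV-LEC samples was sequenced by the authors with a stranded poly(A) kit as single-end reads of 75 bases. Per the submitters' processing notes, STAR 2.7.3a, featureCounts 1.5.1 and GRCm38 were used. The authors deposited raw counts of reads per gene, without normalization. The annotation release and the strand setting are not given in the sources used here.

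Groups followed the labels. Counts were analyzed with edgeR 4.0.16 in R 4.3.3 (filterByExpr, TMM, estimateDisp, glmFit, glmLRT), with Benjamini-Hochberg adjustment over 13818 genes and an FDR of 0.05. Standard errors came from the Fisher information of the negative binomial fit. Values per length and ratios were compared with exact permutation tests in scipy 1.17.1. Lengths, positions and overlaps came from GENCODE M21. The pipeline was tested on simulated data in which only a small part of the genes changed. The simulation did not cover changes in most genes, as seen here. Replicates were not duplicates of each other (chi-square per degree of freedom of 2.37 to 7.84 in 12 pairs).

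The 10 genes and all lists were chosen with earlier results of these data known. 1 marker gene was left out of its list and is not reported here. From each list the text names genes with an absolute log2 fold change of at least 1 at an FDR under 0.05 and up to 3 more with the highest mean CPM. Lats2 had more than 1 row, and the row with the higher total was used. Lats2 and Ptpn14 are in both the Hippo list and the list of other targets. Alternatives were the quasi-likelihood test, DESeq2 1.42.0, its size factors, total counts, no filter, a filter of 1 CPM in 4 libraries, an FDR of 0.01, a prior count of 2, the replicate block, the longest transcript as length, and each library left out.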

Additional observations from a re-analysis of the deposited data

Results flagged for a closer look

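The log2 ratio of Ccn2 to Ccn1 had a library set apart in the untreated group. Untreated library 3 stood at -1.24 and the other untreated libraries lay between -1.29 and -1.28, so that the gap to the nearest of them was 0.922 of the range of the group, above Dixon's 95% critical value for 4 samples. The whole range is small beside the difference of 1.21 between the groups, and without untreated library 3 that difference was 1.22. In all, 30 groups of values were examined in this way, and chance alone gives such a gap in about 1 in 20.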

How the results depend on the processing

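Each result was recomputed under the alternatives. Of 544 log2 fold changes of named genes, 518 kept their direction and their side of the threshold, 24 lost a call, 2 gained one and 0 reversed. All 204 counts of genes stayed within 1.5 times the reported count, though not equal to it. Among the 10 genes 5 to 7 were higher and 2 lower, and in the Hippo list 7 to 9 were higher and 5 to 10 lower. Of 52 recomputed shares, sums and ratios, 51 moved by less than the spread between libraries. The value that moved was the difference in summed CCN level, 478 CPM per kb with exon length and 522 CPM per kb with the longest transcript. Some values could not move. The replicate block leaves a difference of group means as it was, and gene length cancels in the group difference of a log2 ratio. The calls lost, among the genes named by rule, were those of Yap1 (11 of 17 alternatives), Wwc2 (11) and Wwtr1 (2). For Yap1 the call was lost in 7 of the 8 analyses that each left out a library. Mob1a was called lower with total counts alone (-0.14) and without a filter on low counts (-0.10). Total-count scaling gave 4627 higher and 5899 lower genes. With a library left out the smallest p of the permutation test is 0.0571, and 4 pairs cannot reach 0.05 either, so the shares, sums and ratios have no usable test there.

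Replicate numbers are shared between groups, but same-numbered libraries did not deviate together (r of -0.396 to -0.0505 over 9665 genes, against up to 0.528 for other pairs). With the replicate block 5075 genes were higher and 5077 lower, and Yap1 had a log2 fold change of 0.083 that did not pass the test.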

Other observations

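Deviations from the group mean of log2 CPM were shared by some of these genes. Untreated library 1 was the highest of its group for Ccn1 (0.15), Ccn2 (0.13), Ccn3 (0.37) and Amotl2 (0.22), and untreated library 4 was the lowest for the same genes (-0.08, -0.09, -0.25 and -0.19). Ccn4 (-0.01 in both), Yap1 (-0.02 and 0.03) and Ankrd1 (-0.07 and 0.03) did not show this order. The count profiles of untreated library 4 were also the farthest from those of untreated libraries 1 and 2, with a chi-square per degree of freedom of 7.82 and 7.84. Among treated libraries Amotl2 was lower in libraries 1 and 2 (-0.10 and -0.20) than in 3 and 4 (0.14 and 0.16).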
